A study of Homo sapiens with 3 samples.

Results

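A total of 676 of 1598 IgG peaks (42.3%) lay in 27 dense bins of the genome, chosen by cutting each chromosome into bins of 1 Mb from its first base and keeping the bins that held the centres of 10 or more IgG peaks. The numbers of IgG peaks per bin, and where those peaks lay, therefore selected the members and are given as a description only. The 27 bins held 0.772% of the known sequence of the reference and were spread over 15 of 24 chromosomes. Of 520 bins with any IgG peak, 303 held exactly 1.

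The data were chromatin immunoprecipitation sequencing (ChIP-seq) peak lists of the human cell line HUCCT1, a cholangiocarcinoma line, which is a cancer of the bile duct. Chromatin was precipitated with an antibody against SBNO1, an antibody against TAF4, or IgG, and the labels name no treatment or genetic change in any of the 3 libraries. The lists held 16147 SBNO1, 12763 TAF4 and 1598 IgG peaks. Biological replicates were pooled before sequencing, as the study's methods state. Each antibody thus had 1 library from 1 line, no comparison below has a replicate check, and no p-value is given.

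IgG is an antibody of no chosen target and is used in ChIP to measure what chromatin, beads and sequencing yield without one. Peaks in such a library are known to gather at centromeres, pericentromeric satellites and ribosomal RNA gene arrays, sequence families of which the reference holds fewer copies than cells do. Centromeres of human chromosomes are built of alpha satellite, tandem copies of a monomer of fixed length, some of which carry the CENP-B box that binds the centromere protein CENP-B. The flanking heterochromatin is built in part of satellites made of diverged copies of the pentamer ATTCC. SBNO1 is a helicase-family transcriptional regulator, and TAF4 is a subunit of TFIID, the general transcription factor that binds core promoters.

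The following stretches, all read on the plus strand of the GRCh38 reference, show the kinds of sequence at the IgG peaks. The first 5 are the central 120 bases of the widest IgG peak in each of the 5 densest bins. The last surrounds a CENP-B box in 1 of the 5 members with the highest number of such boxes (2 in each), starts shortly before that peak and was chosen after its values were seen. Bins are named by chromosome, with a letter in order along the chromosome where it held more than 1. Capitals mark ATTCC or GGAAT (the same pentamer on the other strand) in the satellite stretches and the CENP-B box, TTCGNNNNANNCGGG on either strand, in the stretch of bin 10a.
Bin 10b, chr10:41854836-41854955: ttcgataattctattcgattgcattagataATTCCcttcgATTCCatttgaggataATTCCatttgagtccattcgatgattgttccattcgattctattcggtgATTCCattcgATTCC
Bin 1, chr1:143217691-143217810: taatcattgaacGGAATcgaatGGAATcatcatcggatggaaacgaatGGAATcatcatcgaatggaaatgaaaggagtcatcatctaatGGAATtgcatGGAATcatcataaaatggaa
Bin 21a, chr21:8242577-8242696: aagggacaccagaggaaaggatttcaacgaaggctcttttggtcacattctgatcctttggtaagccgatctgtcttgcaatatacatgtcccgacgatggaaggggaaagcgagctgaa
Bin 4, chr4:49710453-49710572: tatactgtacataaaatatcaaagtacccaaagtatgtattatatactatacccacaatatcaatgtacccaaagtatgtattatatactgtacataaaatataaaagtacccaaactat
Bin Ya, chrY:11312379-11312498: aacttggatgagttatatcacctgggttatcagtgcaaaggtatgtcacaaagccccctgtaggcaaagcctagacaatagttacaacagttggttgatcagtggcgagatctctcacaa
Bin 10a, chr10:40387644-40387763: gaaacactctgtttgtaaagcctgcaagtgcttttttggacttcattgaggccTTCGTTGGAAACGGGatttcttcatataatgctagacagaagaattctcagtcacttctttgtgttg

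The stretches of bins 10b and 1 each held 5 pentamers, all in 1 orientation, ATTCC in bin 10b and GGAAT in bin 1. The stretch of bin 21a lay in the spacer after the ribosomal RNA gene copy RNA45SN2. The stretch of bin 4 had 25% G and C and no pentamer, although most other members of that bin were pentamer satellite, and the stretch of bin Ya held neither motif.

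Members were unevenly shared among the bins. The 5 densest bins held 301 of the 676 members (44.5%), with 75 in bin 4, 64 in bin 21a, 62 in bin 10b, 61 in bin 1 and 39 in bin Ya, while the median dense bin held 17. Chromosome 10 carried the most members, 115 in 3 bins, followed by chromosome 21 with 94 and chromosome 4 with 75. Just inside the threshold, 6 bins with 10 or 11 centres held 62 IgG peaks, of which 28 had the highest score, 50 overlapped an SBNO1 peak and 59 a TAF4 peak. Just outside it, 8 bins with 8 or 9 centres held 68, of which 36 had the highest score, 49 overlapped an SBNO1 peak and 57 a TAF4 peak.

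**Figure D1:**
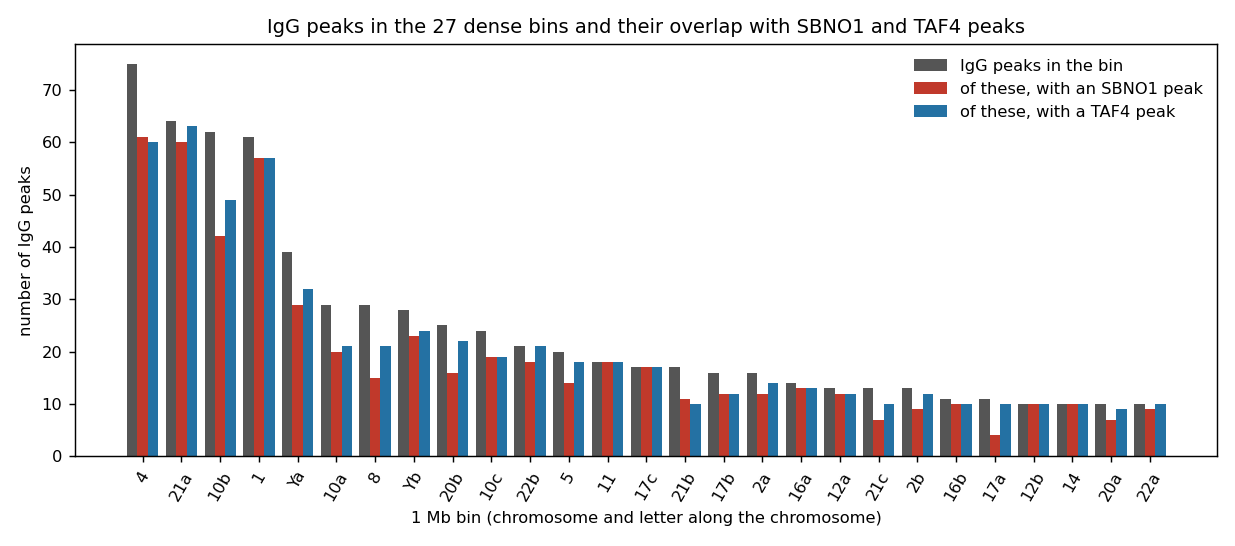
Number of IgG peaks in each of the 27 dense bins (grey bars), and how many of them overlapped an SBNO1 peak (red) or a TAF4 peak (blue) by 1 base or more, with bins in order of their number of IgG peaks. The first 4 bins hold 61 to 75 IgG peaks, the rest 39 or fewer, and most of the IgG peaks of every bin but 8 and 17a carry both other lists, with 4 of 11 on SBNO1 and 10 of 11 on TAF4 peaks in bin 17a.

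Most members lay beside centromeres or large assembly gaps. A centromere array was taken as the largest cluster, per chromosome, of 10 kb windows that matched themselves at the distance of 1 alpha satellite monomer. Windows up to 1 Mb apart were joined, so an array can include other sequence. A heterochromatin gap was taken as 1 Mb or more of unknown bases. Of the 676 members, 579 (85.7%, 95% Clopper-Pearson interval 82.8 to 88.2%) lay within 5 Mb of an array or gap, against 225 of 922 IgG peaks outside dense bins (24.4%, 21.7 to 27.3%) and 10.1% of the known sequence. The split ran along whole bins: in 21 bins every member was within 5 Mb, and in the other 6 (8, 11, 12a, 12b, 14 and 17c) none was. Intervals here and below cover counting error only, and they treat neighbouring peaks as separate although peaks of 1 bin share their sequence family and library.

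Peaks started at the very edge of some gaps. The first member of bin 1 began 34 bases after a gap of 18 Mb on chromosome 1, and 60 of the 61 members lay within 100 kb of that edge. In bin Yb the first member began 8 bases after the 30 Mb gap of chromosome Y, and in bin 16b it began 6 bases after the 8.1 Mb gap of chromosome 16. In bin 2b the last member ended 27 bases before the 1 Mb gap of chromosome 2. In bins 2b and 16b all 13 and all 11 members lay within 100 kb of the gap. Inside a centromere array so defined were 94 members (13.9%, 11.4 to 16.7%), against 111 of the IgG peaks outside dense bins (12.04%, 10.01 to 14.3%), with overlapping intervals. Of the known sequence, 2.47% lay there. Of the 94 members, 62 had a self-match of 45% or more at their own position.

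The sequence under the members was highly repeated. In the median member 60.9% of the words of 50 bases, the read length, occurred more than once in the reference on either strand, against 0% in the median IgG peak outside dense bins. No repeated word at all was found in 60 members (8.88%), against 648 of the others (70.3%). A stretch of 200 bases at the peak's centre with 4 or more pentamers was found in 310 members (45.9%, 42.1 to 49.7%), in 30 IgG peaks outside dense bins (3.25%, 2.21 to 4.61%) and in 0.243% of all 200-base windows of the known sequence. A CENP-B box fell in that stretch in 31 members (4.59%, 3.14 to 6.45%), in 38 of the others (4.12%, 2.93 to 5.61%) and in 0.872% of windows. The intervals for pentamer satellite thus lay apart between members and other IgG peaks, while those for the CENP-B box overlapped. Both treat neighbouring peaks of 1 bin as separate. One member was at least 50% homologous to mitochondrial DNA, against 14 IgG peaks outside dense bins.

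By what most of their members were made of, the bins were placed in 4 classes, with limits set after the values were seen. The classes describe the members and not the whole of a bin. Pentamer satellite was the class of 10 bins with 312 members (1, 2a, 2b, 4, 10b, 10c, 16a, 16b, 17a and 20b). Arrays that matched themselves 1 monomer length on were the class of 3 bins with 55 members (10a, 17b and 20a). Other repeated copies, such as ribosomal RNA genes, were the class of 7 bins with 178 members (5, 8, 17c, 21a, 21b, 22a and 22b). Bin 5 was a mixed case, with all 20 members inside the centromere array of chromosome 5. Some of them were self-matching and others pentamer satellite, but neither kind made up 50%. The remaining 7 bins with 131 members (11, 12a, 12b, 14, 21c, Ya and Yb) had under 50% repeated words in their median member, which was 0% in bins 11, 12a, 12b and 14, 21.9% in bin Ya, 34.2% in bin Yb and 35.5% in bin 21c.

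**Figure D2:**
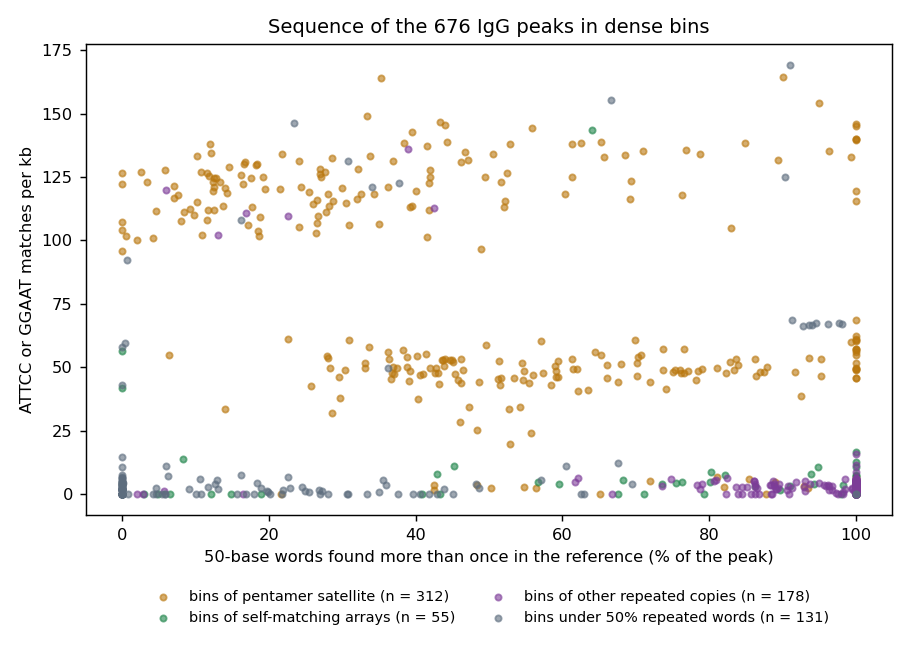
Each point is 1 of the 676 members, placed by the share of its 50-base words that occur more than once in the reference (%, x axis) and by its number of ATTCC and GGAAT matches per kb (y axis), with colours for the 4 classes of bin. Members of pentamer satellite bins form a band near 50 and another near 120 matches per kb, and members of most other bins lie near 0.

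The pentamer bins fell into a denser and a sparser kind. The median member had 122.7 pentamers per kb in bin 4, 105 in bin 10b, 125 in bin 2a, 120 in bin 17a and 113 in bin 20b. Bin 10b was itself a mix, with 32 members at 80 or more per kb, 17 from 20 to 80 and 13 below 20. The median was 49.6 in bin 1, 48.5 in bin 10c, 46.5 in bin 16a, 47.0 in bin 16b and 45.7 in bin 2b. The pentamer was also mostly of 1 orientation within a bin. In bins 10c, 17a and 20b no member held ATTCC on the plus strand, with 1426, 312 and 1645 matches of GGAAT. In bin 4 the other orientation prevailed, with 2352 ATTCC and 371 GGAAT, and bin 2a was the more mixed, with 352 and 176.

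Bin 4 was the densest of all, with 75 members over 621 kb (49091249 to 49711953) at the edge of the centromere array of chromosome 4. Their median width was 339 bp (86 to 2882 bp), 48 were at the highest score, 61 overlapped an SBNO1 peak and 60 a TAF4 peak. The widest, of 2882 bp, was matched almost base for base by an SBNO1 peak of 2884 bp and a TAF4 peak of 2893 bp.

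Bins 10a, 10b and 10c followed each other from within the centromere array of chromosome 10 outward and changed in sequence along the way. In bin 10a all 29 members lay inside the array, 22 matched themselves 1 monomer length on, 9 held a CENP-B box and their median width was 166 bp (76 to 569 bp). Bin 10b had 62 members, 13 inside the array and the rest up to 82.8 kb beyond it, 49 of them pentamer satellite, with a median width of 274 bp (72 to 801 bp). In bin 10c 24 members, all pentamer satellite, stood within 38.5 kb and included 1 of the 5 widest IgG peaks, of 15886 bp (42069179 to 42085064). An SBNO1 peak overlapped 20 of 29, 42 of 62 and 19 of 24 members of these bins, and a TAF4 peak 21, 49 and 19.

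Bin 1, past the great gap of chromosome 1, held 61 members, 60 of them pentamer satellite. Its median width was 444 bp (107 to 12717 bp), 52 were at the highest score, and 57 overlapped an SBNO1 peak and 57 a TAF4 peak. Bin 20b held 25 members within 189.95 kb, all pentamer satellite, with only 6 at the highest score, 16 on an SBNO1 peak and 22 on a TAF4 peak.

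The 2 bins of chromosome Y differed from each other. Bin Ya held 39 members over 467 kb with a median width of 383 bp (69 to 2693 bp), of which 10 were pentamer satellite, 29 overlapped an SBNO1 peak and 32 a TAF4 peak. Bin Yb held 28 members from the edge of the gap onward, of which 9 were pentamer satellite, yet these included 3 of the 5 widest IgG peaks of the genome. They measured 25263 bp (56731328 to 56756590), 22284 bp (56673223 to 56695506) and 14804 bp (56756705 to 56771508), with 66.7, 67.3 and 67.0 pentamers per kb. A single SBNO1 peak of 40190 bp (56731318 to 56771507) and a single TAF4 peak of 40188 bp (56731321 to 56771508), the widest of their lists, covered the 25263 bp and 14804 bp peaks at once.

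The ribosomal RNA gene repeats on the short arm of chromosome 21 held most members of bin 21a. The 45S transcript is cut into the 18S, 5.8S and 28S RNAs of the ribosome, and its genes stand in long tandem arrays of which the reference holds few copies. Of the 64 members of the bin, 60 lay between 8202092 and 8472295 around the annotated copies RNA45SN1, RNA45SN2 and RNA45SN3, covering 109.964 kb, and the other 4 lay between 8806948 and 8988711. In all 3 copies the 18S and 5.8S genes were covered over 100% of their length by IgG, SBNO1 and TAF4 peaks alike. The 28S gene was covered over 97.9%, 97.5% and 91.5% by IgG peaks in copies 1, 2 and 3, over 95.2%, 100% and 86.1% by SBNO1 peaks, and over 100%, 100% and 95.6% by TAF4 peaks.

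Cover went on past the genes. In the first 26 kb after the transcript, IgG peaks covered 63.8%, 68.8% and 70.1% in the 3 copies, SBNO1 peaks 58.0%, 65.2% and 61.2%, and TAF4 peaks 69.3%, 74.5% and 73.0%. In the 5 kb before it, IgG peaks covered 75.5%, 46.1% and 48.2%. Bin 21a had the widest members on the median, 1010 bp (173 to 9577 bp). SBNO1 peaks overlapped 57 and TAF4 peaks all 60 of the 60 members at the genes. In the median member of the bin 100% of the 50-base words occurred more than once in the reference, so the 3 profiles are not separate measurements.

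**Figure D3:**
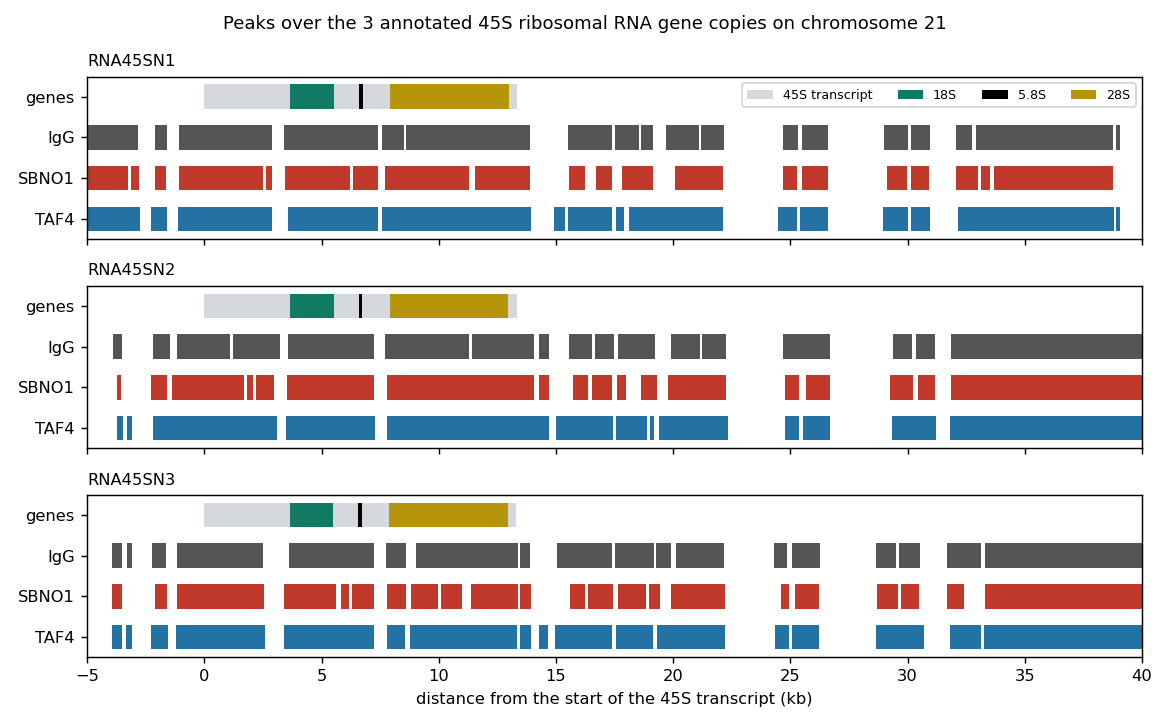
Peaks of the 3 lists (IgG grey, SBNO1 red, TAF4 blue) over the 3 annotated 45S ribosomal RNA gene copies of chromosome 21, by distance from the start of the 45S transcript in kb, with the 18S (green), 5.8S (black) and 28S (yellow) genes above. In every copy and list the 18S and 5.8S genes are covered in full, and the breaks between peaks after the transcript fall at similar distances in the 3 lists.

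The other 17 dense bins, beyond the 10 with most members, held 240 members, 10 to 21 in each, with median widths from 77.5 to 672.5 bp. Of these 240, 193 overlapped an SBNO1 peak, 216 a TAF4 peak and 124 were at the highest score. In bin 22b, 13 of 21 members lay on the FAM230 family of long noncoding RNA genes (FAM230D, FAM230E, FAM230F and FAM230J), 20 were at the highest score, 18 overlapped an SBNO1 peak and all 21 a TAF4 peak.

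An array of U2 genes held most members of bin 17c. U2 is a small nuclear RNA of the spliceosome, and its genes stand in a tandem array, here within the gene CCDC200 on chromosome 17. Every one of the 13 annotated copies (RNU2-1 and 12 named U2), with a median spacing of 5505.5 bp, was overlapped by an IgG, an SBNO1 and a TAF4 peak. Of the 17 members, 16 lay in the array, had 83.7 to 100% repeated words and overlapped both lists. The median score was 732 for the 17 IgG peaks and 1000 for the SBNO1 and for the TAF4 peaks on them, each read only within its own list.

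**Figure D4:**
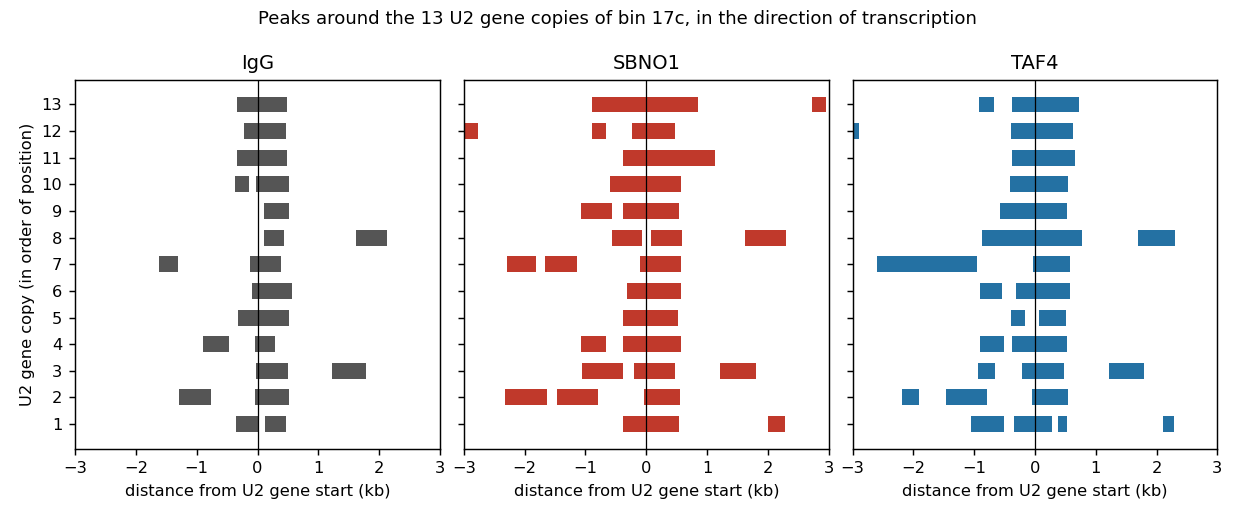
Peaks of IgG (grey), SBNO1 (red) and TAF4 (blue) within 3 kb of the start of each of the 13 U2 gene copies of bin 17c, 1 row per copy in order of position, with distance in kb in the direction of transcription and the gene start at 0. All 13 copies carry a peak of each list over the gene.

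Bins 11, 12a, 12b and 14, with 51 members in all, lay away from any centromere. Of the 51 members, 39 (76.5%) overlapped a gene of any type, long noncoding RNA genes included. No such share is given here for IgG peaks outside dense bins. The median member of each of bins 11, 12a, 12b and 14 had 0% repeated words. An SBNO1 peak overlapped 50 of the 51 and a TAF4 peak 50 (98.04%, 89.6 to 99.95% for each), and 6 were at the highest score (11.8%). These bins held 221 SBNO1 and 193 TAF4 peaks beside the 51 IgG peaks. In the 21 bins near arrays or gaps 579 IgG peaks stood beside 534 SBNO1 and 568 TAF4 peaks. Because the rule chose the bins by their IgG peaks and the whole lists differ in size, these counts are a description only.

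In bin 11, NEAT1, the RNA scaffold of paraspeckles, carried 4 members with scores of 373, 754, 741 and 395. MALAT1, an abundant nuclear RNA of splicing speckles, carried 2 with scores of 508 and 398, and the second also overlapped its antisense partner TALAM1. All 6 overlapped both lists. Over the NEAT1 members, SBNO1 peaks measured 1576 to 3007 bp and TAF4 peaks 717 to 2316 bp, against 299 to 658 bp for the IgG peaks. The SBNO1 peak of 1576 bp and a TAF4 peak of 885 bp each overlapped 2 of these members.

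Protein-coding promoters were rare among the members. A transcription start site of a protein-coding gene lay within 1 kb of 15 members (2.22%, 1.25 to 3.63%), against 216 IgG peaks outside dense bins (23.4%, 20.7 to 26.3%). Over all IgG peaks the number was 231 (14.5%). The 15 members served 18 genes, and all 15 overlapped both an SBNO1 and a TAF4 peak. All lay in bins 11, 12a, 12b and 14, which held 51 members, and no other dense bin had one. In bin 11 the genes were SNX15, a sorting nexin of endosomes, ZNHIT2, SLC25A45, a mitochondrial carrier, the kinase MAP3K11 and its neighbour PCNX3, CFL1, the actin-severing protein cofilin, and FOSL1, an AP-1 transcription factor subunit. In bin 12a they were MRPL51 of the mitochondrial ribosome, the condensin subunit NCAPD2, the chromatin reader ING4, the zinc finger factor ZNF384, COPS7A, a COP9 signalosome subunit, the phosphatase PTPN6, EMG1, which modifies ribosomal RNA, and the prohibitin PHB2. In bin 12b they were APOLD1 and the receptor GPRC5A, and in bin 14 HIF1A, the oxygen-regulated subunit of the hypoxia-inducible factor.

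The 15 members at these promoters had a median width of 437 bp, against 399.5 bp for all members. They ranged from 232 bp at SNX15 (score 920) to 1180 bp at SLC25A45 (score 453), and the 3 at the highest score were those of CFL1, of ING4 (479 bp) and of the promoter shared by MRPL51 and NCAPD2 (259 bp). The member at HIF1A (chr14:61695097-61695534) had a score of 551, and the SBNO1 and TAF4 peaks on it measured 733 and 1041 bp, both at 1000. At FOSL1 (chr11:65900320-65900821) the score was 583, with an SBNO1 peak at 916 and a TAF4 peak at 1000. In bin 14, 5 further members lay in PRKCH, which encodes a protein kinase C, and in bin 12b 1 lay in CDKN1B, which encodes a cyclin-dependent kinase inhibitor, each with both lists.

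Members were of ordinary width on the median but included nearly all of the widest IgG peaks. The median width was 399.5 bp (63 to 25263 bp), against 376 bp (65 to 7433 bp) outside dense bins. Of 18 IgG peaks of 5 kb or more, 16 were members, in bins 1, 10c, 16b, 21a and Yb. These 16 held 30.6% of all bases under members, all were at the highest score and all overlapped both lists. Together the members covered 554 kb, or 58.6% of the 946 kb under IgG peaks. At the other end, 40 members were narrower than 100 bp, and all 40 were at the highest score, as were all 55 such IgG peaks outside dense bins. The narrowest bin was 17b, in an array, where the median was 77.5 bp and all 16 members had the highest score.

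The deposited score, a number from 285 to 1000 in the IgG list and cut off at 1000, was high in the members. It stood at 1000 in 404 members (59.8%, 56.0 to 63.5%), against 225 of the others (24.4%, 21.7 to 27.3%). The pooled share differed with the place of the bin. Near an array or gap 393 of 579 members had the highest score (67.9%, 63.9 to 71.7%), and in the other 6 bins 11 of 97 (11.3%, 5.799 to 19.4%). This did not hold for every bin, since most members of bins 2b, 20b and 21b, all near an array or gap, were below the highest score. By bin the share ran from 6.90% in bin 8 to 100% in bin 17b. Across members, width and score were related by a Spearman rho of -0.27, a description over 676 peaks of 1 library in which many scores are tied at 1000.

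**Figure D5:**
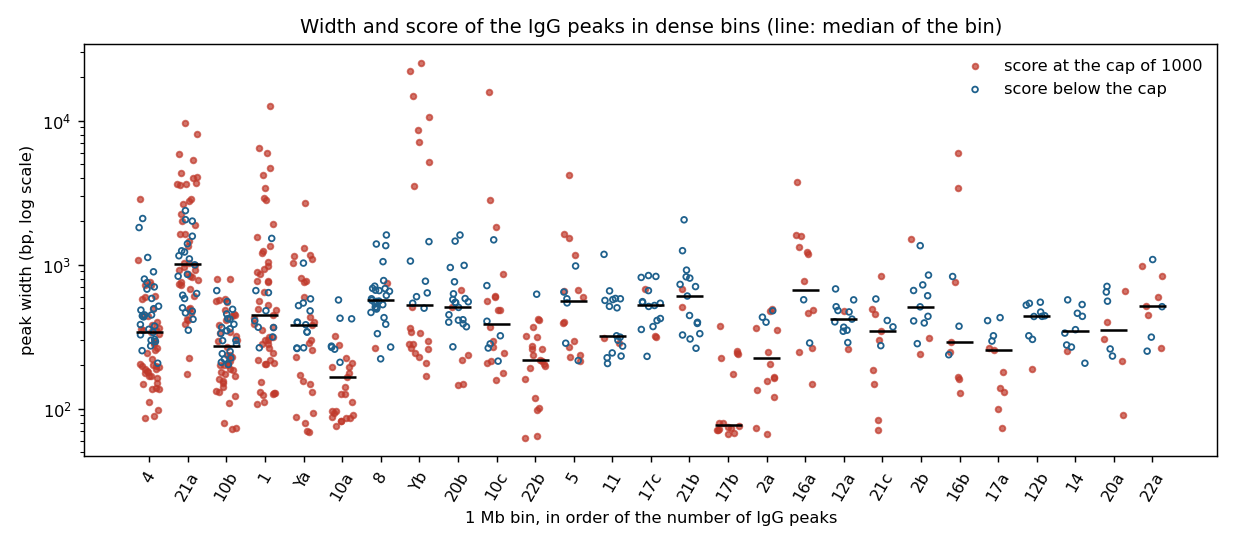
Width of every member in bp on a log scale, by bin in order of the number of IgG peaks, with the median of each bin as a line. Filled red points are at the highest score of 1000 and open blue points below it. The widest points stand in bins Yb, 10c, 1, 21a and 16b, all members under 100 bp are red, and bins 2b, 8, 11, 12a, 12b, 14, 17c, 20b and 21b are mostly blue.

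SBNO1 and TAF4 peaks lay on most members. An SBNO1 peak overlapped 535 of the 676 members (79.1%, 75.9 to 82.1%), where 84.5% of all IgG peaks and 88.5% (86.3 to 90.5%) of those outside dense bins had one. A TAF4 peak overlapped 584 members (86.4%, 83.6 to 88.9%), where 87.5% of all IgG peaks and 88.3% (86.0 to 90.3%) of those outside dense bins had one. The share with SBNO1 was thus lower in dense bins, and that with TAF4 was near the share of IgG peaks as a whole. Both lists overlapped 509 members, TAF4 alone 75 (11.1%, 8.83 to 13.7%), SBNO1 alone 26 (3.85%, 2.53 to 5.58%) and neither 66 (9.76%, 7.63 to 12.2%). Outside dense bins TAF4 alone overlapped 38 (4.12%, 2.93 to 5.61%) and SBNO1 alone 40 (4.34%). Both lists overlapped 776 there (84.2%, 81.6 to 86.5%), against 75.3% (71.9 to 78.5%) of members. Neither overlapped 68 (7.38%, 5.77 to 9.26%), an interval that overlaps that of the members. Over all IgG peaks these shares were 80.4% with both and 8.39% with neither.

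More members lay on TAF4 than on SBNO1 peaks in 15 bins, fewer in 2, and equal numbers in 10. In bin 10b, 49 of 62 lay on TAF4 and 42 on SBNO1 peaks, in bin 20b 22 and 16 of 25, and in bin 17a, a pentamer bin, 10 and 4 of 11. In bins 11, 12b, 14 and 17c every member overlapped both. In bin 8 the members spanned 174 kb of repeated copies with REXO1L pseudogenes on chromosome 8. Of its 29 members 15 overlapped an SBNO1 peak, 21 a TAF4 peak and 6 neither, and only 2 were at the highest score. By class, the share with an SBNO1 peak was 77.9% in pentamer bins, 70.9% in self-matching arrays, 80.9% in other repeated copies and 83.2% in the remaining bins. The last share joined 50 of 51 members in bins 11, 12a, 12b and 14 with 59 of 80 (73.8%) in bins 21c, Ya and Yb. For TAF4 the shares of these classes were 85.3%, 76.4%, 89.9% and 88.5%.

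The 66 members with neither list were narrower and lower in score than the rest. Their median width was 292 bp (67 to 646 bp), and 16 were at the highest score (24.2%, 14.5 to 36.4%). Of the 66, 59 lay near an array or gap and 29 were pentamer satellite. The 3 widest measured 646 bp in bin 5 (49622211 to 49622856, score 643), 612 bp in bin 8 (score 377) and 606 bp in bin 21b (9159288 to 9159893, score 555), and all 3 had 73.5% repeated words or more. Among members at the highest score, 3.96% had neither list (2.28 to 6.35%), against 18.4% below it (13.96 to 23.5%).

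Where peaks of the other lists lay on members, their outlines were sometimes the same. Both edges of the SBNO1 peak with most overlap were within 50 bp of those of the member in 162 of 535 (30.3%, 26.4 to 34.4%), against 16.3% (13.8 to 19.0%) on IgG peaks outside dense bins. For TAF4 this held in 186 of 584 (31.8%, 28.1 to 35.8%), against 18.3% (15.7 to 21.1%). The median ratio of the width of the SBNO1 peak to that of the IgG peak was 1.001 on members and 1.41 outside dense bins, and that of the TAF4 peak 1.05 and 1.32. The median over members covers a mix of bins. In bin 11 the median IgG peak measured 317.5 bp and the SBNO1 and TAF4 peaks on it 777.5 and 750.5 bp, and in bin 17c they measured 521, 909 and 882 bp.

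Seen from the other lists, the dense bins held a small part of the peaks but many of the extreme ones. They held 817 SBNO1 peaks (5.06%) and 822 TAF4 peaks (6.44%), of which 559 and 572 lay on a member. Of 16 SBNO1 peaks of 5 kb or more, 15 lay on a member, and of 17 such TAF4 peaks, 16 did. SBNO1 peaks on members had the highest score in 68.2% (64.1 to 72.0%), those in dense bins off the members in 33.7% (27.98 to 39.8%) and those elsewhere in 33.4% (32.7 to 34.2%). TAF4 peaks had it in 70.1% (66.2 to 73.8%), 42.0% (35.8 to 48.4%) and 41.7% (40.8 to 42.6%). A high score was also found on IgG peaks outside dense bins, where 64.1% (60.7 to 67.4%) of 825 SBNO1 and 64.3% (60.8 to 67.5%) of 814 TAF4 peaks had it, so the higher share was seen on IgG peaks in either place. Of the peaks on no IgG peak, 31.7% of SBNO1 and 40.1% of TAF4 peaks had the highest score.

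Peaks on and off the members also differed in position and sequence. They came largely from different bins. Of the SBNO1 peaks on members, 85.7% lay within 5 Mb of an array or gap, against 21.3% of those in dense bins off them. For TAF4 these shares were 85.0% and 32.8%. Whether the differences below go with the kind of bin or with lying on an IgG peak was not tested. A protein-coding start site lay within 1 kb of 15 of the 559 SBNO1 peaks on members (2.68%), of 84 of the 258 off them (32.6%, 26.9 to 38.7%) and of 30.6% elsewhere. For TAF4 these shares were 2.62%, 34.0% (28.2 to 40.2%) and 49.8%. Repeated words were absent from 9.48% of the SBNO1 peaks on members, 81.0% of those off them and 90.4% elsewhere. On members, 95.2% of the SBNO1 peaks (93.1 to 96.8%) also met a TAF4 peak, against 65.1% of those off them and 58.3% elsewhere. In turn 87.4% of the TAF4 peaks on members (84.4 to 90.0%) met an SBNO1 peak, against 67.6% (61.4 to 73.4%) of those off them and 74.7% elsewhere. On IgG peaks outside dense bins these shares were 95.4% (93.7 to 96.7%) of the SBNO1 and 95.8% (94.2 to 97.1%) of the TAF4 peaks. The SBNO1 and TAF4 lists thus coincided on members no more often than on other IgG peaks. For TAF4 peaks the share was lower on members, by intervals that treat neighbouring peaks as separate.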

How the data were processed

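HUCCT1 chromatin was prepared with an enzymatic ChIP kit. The submitters' processing notes list Bowtie2 2.5.4, Genrich 0.6.1 and GRCh38.p14, whereas the study's methods name normR as peak caller. Which of them made the lists could not be settled. The peak threshold, treatment of duplicates and of reads with several placements, excluded regions, scaling of the score and use of IgG as control are not given in the sources used here, and read depth is unknown. These choices decide how much repeated sequence appears among peaks. The authors deposited 1 peak list per antibody, with a score per peak that ends at 1000 and ranks peaks within 1 list only. All 1598, 16147 and 12763 peaks lay within the chromosomes of the reference.

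Peaks were placed in bins by their centres. Overlap required 1 base. Words of 50 bases were counted on both strands of the primary assembly. Centromere arrays were the largest cluster, per chromosome, of 10 kb windows with 45% or more of bases equal to the base an alpha satellite monomer length on. Windows up to 1 Mb apart were joined into 1 cluster. Pentamers were counted on both strands, and a 200-base centre with 4 or more was called pentamer satellite. Homology to mitochondrial DNA was found with blastn 2.17.0 (E value limit 1e-10). Genes came from GENCODE 44 and ribosomal RNA genes from RefSeq GRCh38.p14. The reference was unmasked, so no annotated repeat classes were used. Shares carry exact 95% Clopper-Pearson intervals (scipy 1.17.1). Scripts were tested on simulated data. With 1 library per antibody no test between antibodies was made.

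Bins, peaks and genes are named by this rule: the 10 densest bins, the widest member of each of the 5 densest, the 5 widest members, the 3 widest with neither list, protein-coding genes with a start site within 1 kb, and ribosomal RNA genes. Bins away from arrays and gaps, bin 22b, the U2 genes, NEAT1, MALAT1, PRKCH, CDKN1B and bins at the ends of a range were named after their values were seen. The members, lists and measures were chosen with earlier results of these data known. Alternatives varied the bins, the threshold, the chromosomes, the score, the overlap and the distance limits.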

Additional observations from a re-analysis of the deposited data

How the results depend on the processing

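Of 74 values under an alternative, 52 stayed within their limits (1.5 times for counts, the 95% interval for shares and for the median width, 368 to 427 bp) and 22 moved. The number of dense bins was 62 with 5 or more centres, 12 with 20 or more and 56 with 500 kb bins. The share at the highest score was 55.7% with 5 or more centres, 65.8% with 20 or more and, in an alternative chosen after seeing the data, 55.8% in members with under 50% repeated words, whose median width was 365 bp. The share within 5 Mb of an array or gap was 77.4% with 5 or more centres, 93.9% with 20 or more, 82.1% with 500 kb bins, 82.7% without chromosome 10, 82.7% under 50% repeated words, 74.4% within 2 Mb and 57.5% with a self-match of 60%, under which 21 chromosomes in place of 24 had an array. Without chromosome 10 the median width was 437 bp. With the highest score required in all lists, 404 members remained, with a median width of 301 bp, 71.8% on SBNO1 peaks, 79.7% on TAF4 peaks and 97.3% near an array or gap. With a reciprocal overlap of 50% the shares were 56.2% for SBNO1 and 61.5% for TAF4. The bins shifted by 500 kb, the lists without chromosome Y, without the densest bin or without IgG peaks of 5 kb or more moved no value. The share with an SBNO1 peak stayed below that with a TAF4 peak under every alternative run. No paired analysis was possible because the replicates had been pooled into a single library for each antibody. Depth, which is unknown, limits how low an enrichment could be listed.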
